A study of Mus musculus with 9 samples.

Results

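Constant peaks deep inside genes are the ZEB1 CUT&RUN peaks that were present before and throughout eribulin treatment and that lie in the body of a protein-coding gene, far from its ends. A consensus peak was taken when it overlapped, by at least 1 base, a region in each of the 4 peak lists and its centre lay inside a protein-coding gene and over 5 kb from the start or end of every protein-coding gene. There were 2148 such peaks of 23623 consensus peaks, and of the 8201 consensus peaks found in all 4 lists. The cells were PB3, a mouse breast cancer line labelled Er-/Pr-/Her2-, and each group had 2 libraries. Treated cells, labelled PB3_ERI, were held in 300 nM eribulin, a drug that binds microtubule ends, for 24, 48 or 72 h. Untreated cells carry the label PB3-Parental, and 1 library of untreated cells was made with IgG in place of the ZEB1 antibody. The labels do not say whether replicates were separate cultures, so the p-values reflect the spread between the 2 libraries of a group, which may be technical. No expression was measured, so the labelled cell type could not be checked against its marker genes. Library totals over consensus peaks ran from 326944 to 765015 counts, and a constant deep peak held a median of 20 to 48 counts per library.

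The transcription factor ZEB1 binds E-box motifs through its paired zinc-finger clusters and is best known for repressing epithelial genes with corepressors. It drives the epithelial to mesenchymal transition in breast cancer cells, in which cells lose junctions and gain motility. Binding inside introns and other gene bodies is common for such factors, since enhancers and alternative promoters lie there. CUT&RUN reads out where an antibody-tethered nuclease cut the DNA, and a peak is a place of signal, not a shown target gene.

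Of the constant deep peaks, 126 overlapped an annotated start of a protein-coding gene in spite of their distance from its outer ends, because the gene has several annotated starts. The 300-base windows about such starts, 250 bases before to 50 after, are given here from RefSeq (GRCm38.p6) for 5 of them, chosen after their values were seen. Adk, Cep70 and Atad1 are those among the 10 largest rises in eribulin of peaks with at least the median level. Fblim1 is the window with 3 matches to the ZEB1 E-box among the windows that rose, and Creb5 is the start whose peak fell. Each is written 5′ to 3′ on the strand of its gene, and capitals mark CACCTG or CAGGTG, the E-box letters that ZEB1 binds.
Adk: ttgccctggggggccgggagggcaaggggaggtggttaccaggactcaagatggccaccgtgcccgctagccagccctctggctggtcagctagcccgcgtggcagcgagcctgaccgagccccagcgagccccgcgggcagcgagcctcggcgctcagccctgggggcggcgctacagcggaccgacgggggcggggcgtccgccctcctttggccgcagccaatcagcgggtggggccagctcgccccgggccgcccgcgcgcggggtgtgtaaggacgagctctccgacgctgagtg
Cep70: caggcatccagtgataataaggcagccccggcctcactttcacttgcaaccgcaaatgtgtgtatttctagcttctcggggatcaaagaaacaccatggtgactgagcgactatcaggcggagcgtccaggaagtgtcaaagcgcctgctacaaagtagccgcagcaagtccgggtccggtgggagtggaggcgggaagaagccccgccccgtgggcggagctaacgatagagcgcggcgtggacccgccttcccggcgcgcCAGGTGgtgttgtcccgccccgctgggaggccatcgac
Atad1: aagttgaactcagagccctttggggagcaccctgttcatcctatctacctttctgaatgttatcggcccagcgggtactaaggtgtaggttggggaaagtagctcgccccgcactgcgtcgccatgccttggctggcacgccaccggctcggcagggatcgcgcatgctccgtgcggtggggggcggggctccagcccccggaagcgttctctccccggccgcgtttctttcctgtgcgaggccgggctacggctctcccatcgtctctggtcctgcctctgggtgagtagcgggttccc
Fblim1: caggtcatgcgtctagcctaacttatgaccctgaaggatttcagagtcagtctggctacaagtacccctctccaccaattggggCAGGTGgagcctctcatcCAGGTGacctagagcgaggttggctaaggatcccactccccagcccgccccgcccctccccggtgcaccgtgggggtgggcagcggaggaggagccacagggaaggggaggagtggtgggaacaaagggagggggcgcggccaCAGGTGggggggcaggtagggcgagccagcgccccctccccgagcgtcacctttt
Creb5: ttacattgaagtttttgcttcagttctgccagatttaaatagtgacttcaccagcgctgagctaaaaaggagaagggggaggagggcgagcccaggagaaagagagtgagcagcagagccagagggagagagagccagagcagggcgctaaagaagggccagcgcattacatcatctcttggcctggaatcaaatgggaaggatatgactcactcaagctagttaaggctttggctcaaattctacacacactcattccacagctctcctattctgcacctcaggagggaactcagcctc
The Adk window lies at chr14:21075902-21076201 on the plus strand, the Cep70 window at chr9:99243091-99243390 on the plus strand and the Atad1 window at chr19:32712249-32712548 on the minus strand. The Fblim1 window lies at chr4:141599949-141600248 on the minus strand and the Creb5 window at chr6:53573124-53573423 on the plus strand. The Adk, Cep70 and Atad1 windows held 33, 25 and 24 CG pairs, the Fblim1 window 13 and the Creb5 window 4. E-box letters were found 3 times in Fblim1, 1 time in Cep70 and nowhere in Adk, Atad1 or Creb5.

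Over the 140 windows under constant deep peaks, CACCTG on either strand was found in 22.9% (32 windows). The share was 16.1% of the 6298 windows under other consensus peaks and 19.7% of all 21238 windows of coding genes. The looser CANNTG, which contains every CACCTG match, was found in 63.6% of the windows under constant deep peaks, against 59.1% under other peaks and 69% of all windows. The AP-1 letters TGANTCA were found in 8.57% of them, against 4.87% under other peaks and 6.99% of all. The median window held 22.5 CG pairs under constant deep peaks, 24 under other peaks and 13 over all coding genes. A match is a match of letters only, and the sequence of the other 2022 constant deep peaks was not analysed here.

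The constant deep peaks lay far into long genes. The median distance of a centre from the nearest coding gene boundary was 27.4 kb (quartiles 12.9 and 58), 1782 peaks (83%) were over 10 kb away and 262 (12.2%) over 100 kb. The median length of the gene that held a peak was 120 kb. For the 1703 peaks in genes whose strand the reference gives, 922 (54.1%, 95% Wilson interval 51.8 to 56.5) lay nearer to its start than to its end. The rule itself keeps peaks away from both ends. Exons and introns were not told apart, because the gene table gives outer ends only. At the 5 kb limit, the nearest peaks inside it were in Rab11fip2 (5 kb), Plcd1 and Gxylt2 (both 5.01 kb), and the nearest outside it were in Sf3b3 (4.98 kb), Axl (4.99 kb) and Uroc1 (just under the limit).

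**Figure D1:**
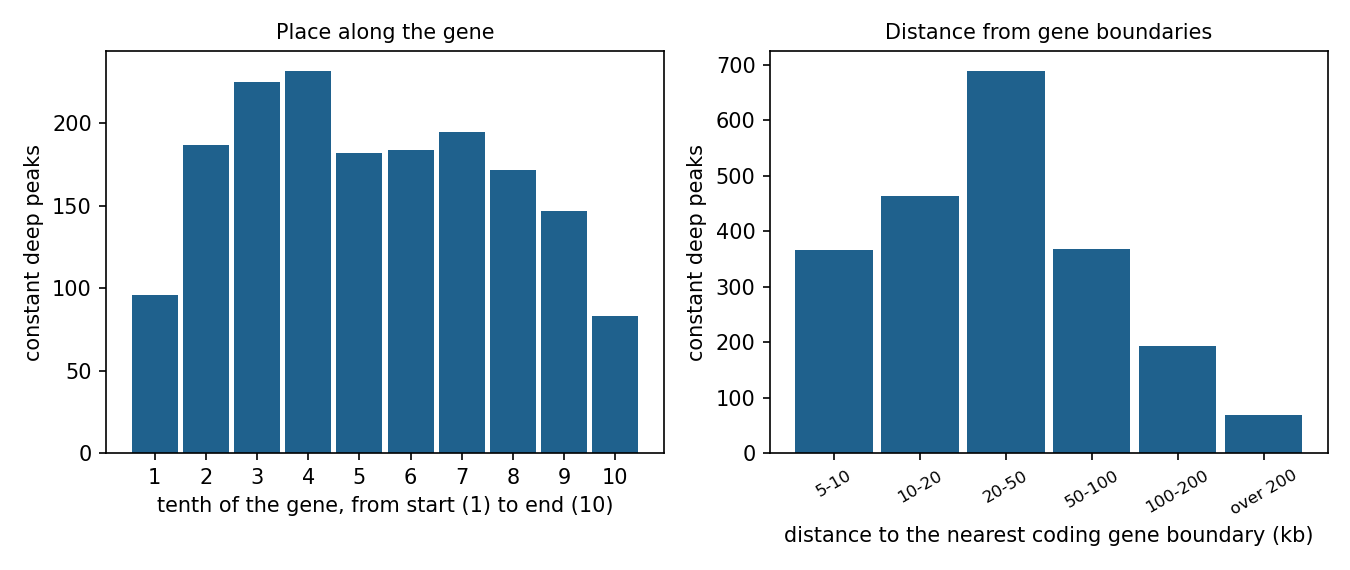
Place of the constant deep peaks along their gene, as the number of peaks in each of 10 equal bins from the start to the end of the gene (left, 1703 peaks with a known strand), and their distance to the nearest boundary of a protein-coding gene in kb (right, 2148 peaks). Bin 4 holds most peaks, 232, and bins 1 and 10 hold 96 and 83.

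The peaks belonged to 1387 genes, of which 954 had 1 constant deep peak, 256 had 2 and 177 had 3 or more. These 177 genes together held 682 of the peaks. Dlgap1, which encodes a scaffold protein of synapses, had the most, 13 peaks over an 852 kb gene, and Nav2, a neuron navigator gene whose product binds microtubules, had 12 over 651 kb. Myof, the gene of the membrane repair protein myoferlin, had 9 peaks in 145 kb, Ctif, a translation initiation factor gene, had 8 in 266 kb, and Sipa1l3, a gene for a Rap GTPase-activating protein, had 8 in 199 kb. In Myof 2 peaks rose, 1 fell and 6 did not pass the test for the mean of the 3 eribulin times. Their log2 fold changes ran from -0.38 to 0.60. In Dlgap1 the range was -0.60 to 0.16, with 1 fall, and in Nav2 -0.59 to 0.32, also with 1 fall. The ranges were -0.22 to 0.48 in Ctif and -0.45 to 0.54 in Sipa1l3, and no peak of either gene passed for that mean. Differences between peaks of 1 gene were not tested. Smad3, the signal carrier of TGF-beta receptors, held 7 peaks in 111 kb and Plec, the gene of the cytoskeletal linker plectin, 6 in 60.4 kb.

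Signal at these peaks was high, which the rule favours, since a peak had to be found 4 times. The median level was 64.9 CPM (counts scaled to the library's total over tested peaks) over the 8 ZEB1 libraries, against 25.3 CPM for tested peaks deep inside genes that were missing from a list and 63.4 CPM for constant peaks within 1 kb of a gene boundary. The median width was 533 bp, against 258 and 577 bp for those 2 classes. In the authors' deposited peak lists the median fold of the constant deep peaks over IgG was 9.14, 10.4 and 7.48 after 24, 48 and 72 h, against 9.38 in untreated cells. The highest level was in Gphn, which encodes the scaffold of inhibitory receptors gephyrin, at a mean of 849 CPM (chromosome 12, 78350882 to 78351171). The next was Jarid2, a subunit of the Polycomb complex that methylates histone H3, at 802 CPM (chromosome 13, 44869572 to 44870018). Asap1, an Arf GTPase-activating protein gene, had 383 CPM and Ide, the gene of the insulin-degrading enzyme, 344 CPM. Cacng4 (328 CPM) encodes a calcium channel subunit, Atxn10 (313 CPM) ataxin 10, Sdc4 (311 CPM) the matrix receptor syndecan 4, Cic (281 CPM) the repressor capicua and Slco2a1 (280 CPM) a prostaglandin transporter.

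Among the 10 peaks of highest level, Gphn was the one that rose over the 3 eribulin times. It had 1105 and 850 CPM at 24 h, 761 and 778 CPM at 48 h, and 1079 and 1117 CPM at 72 h, against 605 and 498 CPM in untreated cells, so that the groups did not overlap. The log2 fold change of the mean of the 3 times was 0.78 (SE 0.0987, adjusted p = 8.02e-10, edgeR's quasi-likelihood test with Benjamini-Hochberg adjustment over 21192 tested peaks, as in all that follows). Jarid2 had 500, 865 and 1041 CPM in eribulin (lowest, median and highest of 6 libraries), against 773 and 717 CPM untreated, and did not pass (0.13, adjusted p = 0.57). Ide varied between replicates of 1 group, with 508 and 180 CPM at 48 h, and its fold change of 0.17 had an SE of 0.454.

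Most constant deep peaks had fold changes near 0. For the mean of the 3 times, 1711 (79.7%) had a fitted log2 fold change between -0.5 and 0.5. In 289 (13.5%) the 4 group means lay within a factor of 1.2 of each other, and in 156 (7.26%) they differed by over 2-fold. The strongest of the steady peaks were those of Asap1, Atxn10, Sdc4, St3gal3, a sialyltransferase gene, and Pfdn1, a gene of the prefoldin chaperone. Sdc4 (chromosome 2, 164432419 to 164433843) had 286, 310 and 326 CPM in eribulin (lowest, median and highest), against 325 and 315 CPM untreated, a log2 fold change of -0.05 (SE 0.107). St3gal3 had 245, 269 and 293 CPM in eribulin, against 242 and 301 CPM untreated (-0.05, SE 0.112). These peaks were picked because they did not move, so their small folds are a description.

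Over the mean of the 3 eribulin times, 181 constant deep peaks rose (8.43%) and 183 fell (8.52%), and 1784 did not pass. Over all 21192 tested peaks the shares were 8.27% higher and 8.53% lower, so the constant deep peaks were called about as often as any peak. Their median fold change was -0.01, as over all peaks. Their level was higher, with a median of 64.9 against 35.5 CPM. Their log2 fold changes spread less, from -0.60 to 0.76 (5th to 95th percentile), against -0.85 to 1.03 over all tested peaks. All 2148 had passed the filter on low counts. A peak that eribulin removed could not be among them, because the rule asked for a listed peak at every time. The median log2 fold change was 0.79 among those that rose and -0.62 among those that fell. DESeq2 called 14 higher and 9 lower (over all tested peaks 0.571% and 0.519%), and without untreated replicate 2 edgeR called 29 and 31 (1.41% and 1.59% over all tested peaks).

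The peaks named next are called peaks of at least the median level (64.9 CPM) whose groups did not overlap, by size of change, and larger changes at weaker peaks are not listed. The largest rise was at Tns3, the gene of tensin 3, which links integrins to actin (chromosome 11, 8463086 to 8463675, 31.7 kb from a boundary). It had 74.1, 87.8 and 115 CPM in eribulin (lowest, median and highest), against 35.8 and 18.3 CPM untreated, with no overlap. The log2 fold change was 1.85 (SE 0.255, adjusted p = 2.4e-08). Adk, the gene of adenosine kinase, had 126 and 113 CPM at 24 h, 116 and 161 CPM at 48 h, and 148 and 144 CPM at 72 h, against 49.5 and 45.9 CPM untreated. Every eribulin library was above both untreated libraries, and the log2 fold change was 1.49 (SE 0.194, adjusted p = 2.49e-09). Adk is the peak at the internal start shown first above.

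Adgrl2, which encodes an adhesion G protein-coupled receptor of the latrophilin family, had 59.5, 78.6 and 113 CPM in eribulin, against 41.3 and 27.5 CPM untreated (1.28, adjusted p = 6.91e-05). Without untreated replicate 2 its adjusted p was 0.112. Cep70, a centrosome protein gene, had 118, 125 and 139 CPM in eribulin, against 57.8 and 52 CPM untreated (1.22, SE 0.186, adjusted p = 4.76e-07). Atad1, the gene of an ATPase that clears misplaced proteins from the outer mitochondrial membrane, had 123, 146 and 163 CPM in eribulin, against 57.8 and 62.7 CPM untreated (1.21, SE 0.178, adjusted p = 1.46e-07). In both genes the groups stood well apart, and both peaks lie at the internal starts shown above.

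Ano4, which encodes an anoctamin membrane protein, had 60.1, 103 and 130 CPM in eribulin, against 27.5 and 47.4 CPM untreated, and rose (adjusted p = 2.81e-05). Chd8, a chromatin remodeller gene, rose by 1.19 (adjusted p = 0.000129) and Wwc2, a gene of the WWC family that acts in the Hippo pathway, by 1.15 (adjusted p = 0.000192). Mllt3, a chromatin reader gene of the elongation machinery, rose by 1.13 (adjusted p = 6.15e-05) and P2ry12, the gene of an ADP receptor, by 1.12 (adjusted p = 2.1e-05). The P2ry12 peak also lies inside Med12l, a Mediator subunit gene. With DESeq2, Chd8 (adjusted p = 0.0516) and Wwc2 (0.0507) did not pass, and Chd8 did not pass without untreated replicate 2 (0.068).

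The largest falls at peaks of that level included 3 peaks of Tex14, a gene known for the bridges between germ cells. The strongest (chromosome 11, 87442965 to 87444240) had 218 and 206 CPM at 24 h, 148 and 159 CPM at 48 h, and 132 and 116 CPM at 72 h, against 338 and 350 CPM untreated. All 6 eribulin libraries were below both untreated ones, and the log2 fold change was -1.11 (SE 0.113, adjusted p = 4.4e-14). The second (87422646 to 87423905) had 97.1, 112 and 130 CPM in eribulin, against 220 and 208 CPM untreated (-0.92, adjusted p = 8.24e-08). The third (87448424 to 87449421) had 78.7, 94.3 and 107 CPM in eribulin, against 187 and 168 CPM untreated (-0.91, adjusted p = 1.15e-06). Each of the 3 lies less than 1 kb from a gene of a small nuclear RNA, a kind of gene that exists in near-identical copies, so their counts may be split or shared between copies. Another constant deep peak so placed, in Rnf14, a ubiquitin ligase gene, had 46, 66.9 and 122 CPM in eribulin, against 71.5 and 52 CPM untreated, and did not pass (0.25, adjusted p = 0.426).

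Thsd4, which encodes a matrix protein that binds fibrillin microfibrils, fell (chromosome 9, 60501868 to 60502817). It had 60.9, 74.8 and 83.8 CPM in eribulin, against 140 and 147 CPM untreated, and its log2 change was -0.99 (SE 0.158, adjusted p = 1.48e-06). Lamc1, the gene of laminin gamma 1, had 59.9, 67.1 and 80.1 CPM in eribulin, against 118 and 144 CPM untreated (-0.99, SE 0.163, adjusted p = 3.29e-06). In both genes the groups did not overlap. Clec2g, a C-type lectin gene, fell (-0.92, adjusted p = 4.87e-05), as did Nfatc1, the gene of a calcineurin-regulated transcription factor (-0.88, adjusted p = 0.000236), and Cap1, the gene of an actin-turnover protein (-0.86, adjusted p = 0.000333). Lin28b, whose product blocks let-7 maturation, fell (-0.83, adjusted p = 0.000719), and so did Serpinb2, a plasminogen activator inhibitor gene (-0.80, adjusted p = 0.000287). DESeq2 did not call Nfatc1 (adjusted p = 0.0748), Cap1 (0.0921), Lin28b (0.134) or Serpinb2 (0.0986). Without untreated replicate 2, Lamc1 (adjusted p = 0.0606), Cap1 (0.0503), Lin28b (0.154) and Serpinb2 (0.0613) did not pass.

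**Figure D2:**
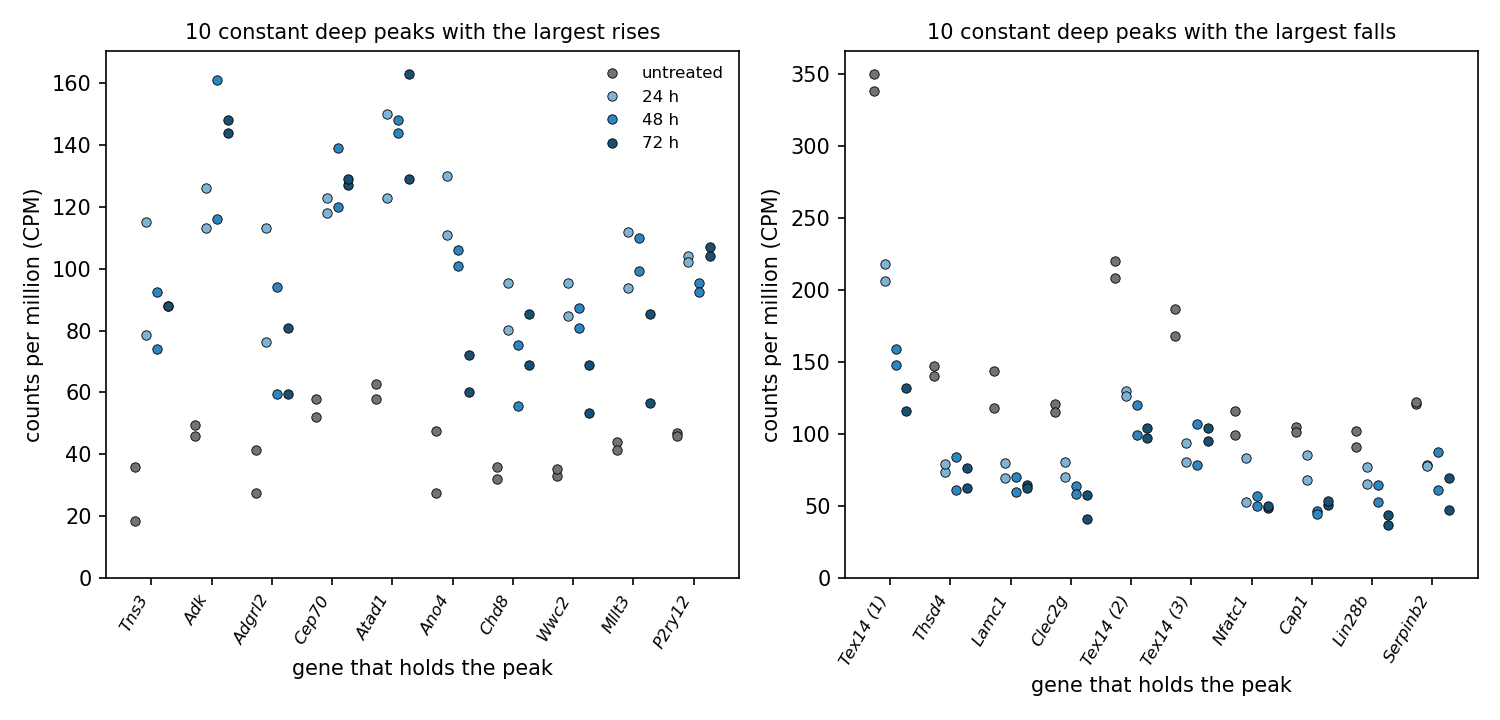
CPM (linear axis from 0) in each of the 8 ZEB1 libraries for the 10 largest rises (left) and 10 largest falls (right) over the mean of the 3 eribulin times among called constant deep peaks of at least 64.9 CPM, their median, whose groups did not overlap, with 1 point per library. Grey points are untreated libraries and blue points, light to dark, 24, 48 and 72 h; the blue points of Tns3 lie at 74.1 to 115 and its grey points at 35.8 and 18.3.

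Signal rose at more of the peaks on an internal start than it fell. For the mean of the 3 times 30 rose (23.8%) and 1 fell (0.794%), with a median log2 fold change of 0.16. The shares over all tested peaks were 8.27% higher and 8.53% lower with edgeR, and 0.571% and 0.519% with DESeq2. Of the other 2022 constant deep peaks 151 rose (7.47%) and 182 fell (9%), with a median of -0.02. By DESeq2 5 rose and none fell (1 lower at an unadjusted p below 0.05), and without untreated replicate 2 edgeR called 5 higher and 1 lower. Constant peaks within 1 kb of a gene boundary also rose more often than they fell. Of these 2815 peaks 397 rose (14.1%) and 79 fell (2.81%) for the mean of the 3 times, with a median of 0.17. DESeq2 called 28 of them higher and 11 lower. The counts are a description, since the internal starts were looked up after the files were seen. Differences between these sets of peaks were not tested. Constant deep peaks overlapped an annotated coding start in 5.87% of cases (95% Wilson interval 4.95 to 6.94), against 3.78% of deep peaks missing from a list and 78.5% of constant peaks at a gene boundary. The median widths of these 3 classes were 533, 258 and 577 bp, and the overlap was not adjusted for width.

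The largest rise at an internal start was in Spdya, the gene of a cyclin-like activator of cell cycle kinases. It had 48.9, 52.2 and 59.6 CPM in eribulin, against 19.3 and 16.8 CPM untreated, and its log2 change was 1.56 (SE 0.298, adjusted p = 6.5e-05), which did not pass without untreated replicate 2 (0.0588). Stk25, a Ste20-family kinase gene, had 143, 161 and 210 CPM in eribulin, against 74.3 and 96.3 CPM untreated (0.89, SE 0.158, adjusted p = 1.7e-05). Gne, the gene of the first enzyme of sialic acid synthesis, had 44.3, 60.5 and 107 CPM in eribulin, against 19.3 and 32.1 CPM untreated (1.23, adjusted p = 0.000291). In all 3 genes the groups stood apart.

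Sptbn1, the gene of a spectrin under the plasma membrane, rose by 1.28 (adjusted p = 0.000551), and Fblim1, the gene of migfilin, which acts at cell adhesions, by 1.22 (adjusted p = 0.00114). Fblim1 had 45, 50.4 and 62.7 CPM in eribulin, against 27.5 and 18.3 CPM untreated. Hk1, the gene of hexokinase 1, rose by 0.88 (adjusted p = 0.00609) and Kdm2b, a histone demethylase gene, by 0.84 (adjusted p = 0.00601). The single fall was at Creb5, a bZIP transcription factor gene, 127 kb from a boundary. It had 51.2, 61.8 and 80.5 CPM in eribulin, against 116 and 101 CPM untreated (-0.73, SE 0.178, adjusted p = 0.00199). DESeq2 did not call Gne (adjusted p = 0.0626), Sptbn1 (0.091), Fblim1 (0.128), Hk1 (0.242), Kdm2b (0.213) or Creb5 (0.157). Without untreated replicate 2, Sptbn1 (0.0731), Fblim1 (0.234), Hk1 (0.416) and Kdm2b (0.183) did not pass.

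The 3 times share their untreated libraries, so their counts are given side by side. At 24 h 184 constant deep peaks were higher than untreated and 88 lower, 8.57% and 4.1%, against 6.44% and 4.61% of all tested peaks. At 48 h 127 were higher and 126 lower, 5.91% and 5.87%, against 6.09% and 5.41%. At 72 h 90 were higher and 124 lower, 4.19% and 5.77%, against 6.84% and 5.74%. The medians were 0.03, 0.00 and -0.03 on the log2 scale. DESeq2 called 14 higher and 1 lower at 24 h (0.288% and 0.137% of all tested peaks), 7 and 2 after 48 h (0.17% and 0.189%), and 10 and 3 after 72 h (0.293% and 0.25%). Without untreated replicate 2 edgeR called 48 and 13 for 24 h (1.52% and 0.773% of all tested peaks), 22 and 24 for 48 h (1.16% and 1.17%), and 17 and 39 for 72 h (1.59% and 1.64%).

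Further peaks were named from each time's own comparison with untreated cells, and several of them passed at more than 1 time. At 24 h the falls included Gpr176, an orphan G protein-coupled receptor gene, with 97.2 and 75 CPM against 165 and 157 CPM untreated (-0.91, adjusted p = 0.000146). Synpo, the gene of the actin-binding protein synaptopodin, had 83.6 and 77.8 CPM against 146 and 151 CPM untreated (-0.89, adjusted p = 0.000274). In both genes the 2 libraries at 24 h lay below both untreated ones. Gpr176 also passed at 48 h (adjusted p = 0.00121) and 72 h (0.015), and Synpo at 48 h (0.00521). With DESeq2 neither passed at 24 h (adjusted p = 0.105 for Gpr176 and 0.111 for Synpo).

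At 72 h Cntnap5b, a gene of the neurexin-like family of contactin partners, had 233 and 279 CPM against 110 and 96.3 CPM untreated (1.32, SE 0.18, adjusted p = 2.97e-08). Zfp672, a zinc-finger gene whose peak lies at an internal start, had 111 and 94.1 CPM against 52.3 and 27.5 CPM untreated (1.51, adjusted p = 6.28e-05), and did not pass without untreated replicate 2 (adjusted p = 0.0828). Both were above every untreated library. Both had also passed at 24 h (adjusted p = 0.0175 for Cntnap5b and 0.048 for Zfp672) and 48 h (0.0287 and 0.0326). The falls at 72 h included Txk, a Tec-family kinase gene, with 43.9 and 40.8 CPM against 113 and 104 CPM untreated (-1.33, adjusted p = 0.000326). Afap1l2, the gene of an actin-associated adaptor, had 43.9 and 31.4 CPM against 110 and 84.1 CPM untreated (-1.27, adjusted p = 0.00122). P2ry14, the gene of a UDP-glucose receptor whose peak also lies in Med12l, had 64.7 and 62.7 CPM against 135 and 156 CPM untreated (-1.21, adjusted p = 6.85e-05). The P2ry14 and P2ry12 peaks, both within Med12l, thus went opposite ways at 72 h, where P2ry12 rose (1.18, adjusted p = 0.000772). P2ry14 also passed at 48 h (adjusted p = 0.00292), while Txk and Afap1l2 passed at 72 h alone of the 3 times. With DESeq2 Txk (adjusted p = 0.0609) and Afap1l2 (0.0948) did not pass at 72 h.

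Between 72 and 24 h of eribulin, 18 constant deep peaks were higher at 72 h and 72 lower. These were 0.838% and 3.35% of them, against 2.32% and 2.39% of all tested peaks, and the median was -0.08 against -0.01. The peaks at an internal start went the other way, with 6 higher, 1 lower and a median of 0.25, against 12 higher, 71 lower and a median of -0.10 for the other constant deep peaks. DESeq2 called none higher and 1 lower (0.00944% and 0.0142% of all tested peaks), with 24 and 85 at an unadjusted p below 0.05. With edgeR the counts over all constant deep peaks were 6 higher and 32 lower without 24 h replicate 1 (0.714% and 0.949% of all tested peaks), and 3 and 38 without 24 h replicate 2 (0.709% and 1.07%). They were 3 and 25 without 72 h replicate 1 (0.565% and 0.701%), and 5 and 13 without 72 h replicate 2 (0.452% and 0.489%).

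Palld, the gene of the actin scaffold palladin, was lower at 72 h (chromosome 8, 61802878 to 61804195). It had 143 and 138 CPM at 72 h, against 305 and 289 CPM at 24 h, and its log2 change was -1.07 (SE 0.16, adjusted p = 4.55e-06), and it is the peak that DESeq2 called as well (adjusted p = 0.0242). Col18a1, the collagen gene from which endostatin is cut, had 48.5 and 28.2 CPM at 72 h, against 107 and 95.5 CPM at 24 h (-1.33, adjusted p = 0.00102). Arhgef33, a gene for an exchange factor of small GTPases, had 50.8 and 37.6 CPM at 72 h, against 114 and 111 CPM at 24 h (-1.31, adjusted p = 0.000532). In each gene both libraries at 72 h lay below both at 24 h.

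Ergic1, a gene of the compartment between endoplasmic reticulum and Golgi, had 62.4 and 65.9 CPM at 72 h, against 155 and 131 CPM at 24 h (-1.15, adjusted p = 0.000426). At 24 h it had risen over the 66 and 68.8 CPM of untreated cells (1.06, adjusted p = 4.33e-05), and at 72 h it did not differ past the threshold (-0.09, SE 0.267). Sipa1l3 was lower at 72 h at its peak on an internal start, with 48.5 and 50.2 CPM against 116 and 102 CPM at 24 h (-1.14, adjusted p = 0.00235). Both peaks had their highest libraries at 24 h.

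Among called peaks of at least 64.9 CPM without overlap, the largest rises at 72 h over 24 h were at Chd9, a chromatin remodeller gene, with 102 and 97.2 CPM against 58 and 38.2 CPM (1.08, adjusted p = 0.00515), and Rbpj, the DNA-binding partner of Notch, with 113 and 94.1 CPM against 49.5 and 60 CPM (0.92, adjusted p = 0.0126). Tef, a bZIP factor gene with its peak on an internal start, had 99.4 and 110 CPM at 72 h, against 61.4 and 50.5 CPM at 24 h (0.90, adjusted p = 0.0136). Col16a1, a collagen gene, had 150 and 107 CPM at 72 h, against 68.2 and 79.1 CPM at 24 h (0.82, adjusted p = 0.00986), and Ets1, an ETS-family transcription factor gene, 171 and 176 CPM against 104 and 94.1 CPM (0.81, adjusted p = 0.00341). In these 5 genes the libraries at 72 h lay above those at 24 h. Each lost its call when 1 library of these 2 times was left out: Chd9 (adjusted p = 0.0817), Rbpj (0.236), Tef (0.0807), Col16a1 (0.41) and Ets1 (0.0578) did not pass without 72 h replicate 1, nor did Sipa1l3 (0.066), and Col18a1 (0.0626) and Tef (0.111) did not pass without 72 h replicate 2. Without 24 h replicate 1, Rbpj (adjusted p = 0.0999) and Col16a1 (0.0928) did not pass, and without 24 h replicate 2, Chd9 and Tef (both 0.146) and Ets1 (0.0681).

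**Figure D3:**
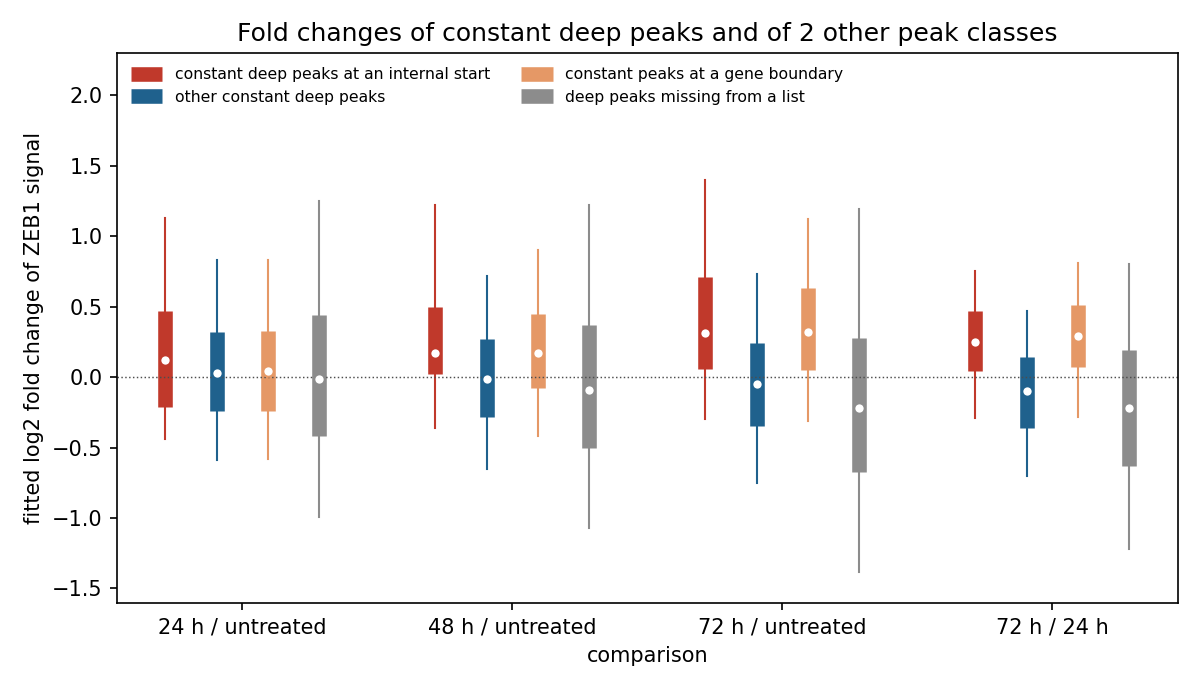
Fitted log2 fold changes of ZEB1 signal (vertical axis) for 4 comparisons (horizontal axis) in constant deep peaks at an internal start, the other constant deep peaks, constant peaks within 1 kb of a gene boundary and deep peaks missing from at least 1 list. White points are medians, thick bars run from the 25th to the 75th percentile of peaks and thin lines from the 5th to the 95th; for 72 h over 24 h the medians were 0.25, -0.10, 0.29 and -0.22 in that order.

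Constant peaks at gene boundaries differ from the deep ones by rule in position alone. At 72 h 422 of 2815 boundary peaks were higher than untreated (15%) and 30 lower (1.07%), with a median of 0.32. Of the 2148 deep ones 90 were higher (4.19%) and 124 lower (5.77%), with a median of -0.03. The shares over all tested peaks at 72 h were 6.84% and 5.74%. DESeq2 called 16 boundary peaks higher and 7 lower at 72 h (0.293% and 0.25% over all tested peaks). At 48 h it called 5 boundary peaks higher and 8 lower (0.17% and 0.189% over all). The constant deep peaks took 16.5 and 16.3% of a library's counts after 24 h, 15.7 and 16% after 48 h, then 15.3 and 15.3% after 72 h, against 15.6 and 16% in untreated cells. Their part at internal starts took 0.843 and 0.889% after 24 h, 0.954 and 0.911% after 48 h, then 1.01 and 1.01% after 72 h, against 0.798 and 0.817% in untreated cells. Boundary peaks took 19.2 and 19.4%, 21.5 and 20.5%, and 22.9 and 23.4% at the 3 times, against 19.2 and 19.2% in untreated cells. Shares sum to a whole, so a larger share at boundaries leaves less for other peaks, and a change common to every peak cannot be seen in these data. Deep peaks missing from a list had a median of -0.22 at 72 h. Of 3933 tested, 140 were higher (3.56%) and 285 lower (7.25%), but these peaks were chosen as absent from a list. None of these differences between classes of peaks was tested.

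**Figure D4:**
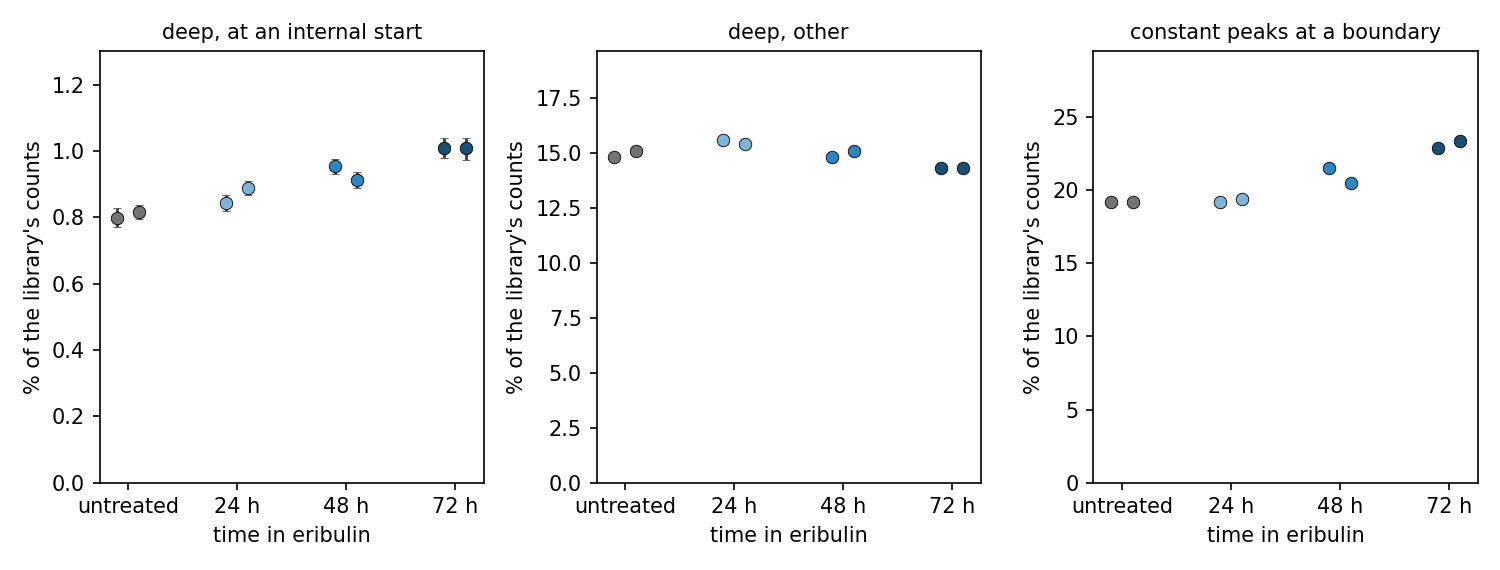
Share of each library's counts in consensus peaks (%, linear axis from 0) held by constant deep peaks at an internal start (left), the other constant deep peaks (middle) and constant peaks at a gene boundary (right), by time in eribulin, with 1 point per library and 95% Wilson intervals that cover counting error only. The left panel climbs to 1.01% in both libraries at 72 h, while the middle one ends at 14.3% in both.

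Genes of the actin cytoskeleton and cell adhesion, the longest list examined, held 79 constant deep peaks in 31 of 61 genes. For the mean of the 3 times 7 of the 79 rose, 5 fell and 67 did not pass, beside the 8.27% higher and 8.53% lower over all tested peaks. The median was -0.05 against -0.01 over all tested peaks, and DESeq2 called 2 higher and 1 lower (0.571% and 0.519% over all). Myh9, the heavy chain of nonmuscle myosin, rose at the stronger of its called peaks (chromosome 15, 77800110 to 77801101). It had 191, 238 and 293 CPM in eribulin, against 116 and 141 CPM untreated (0.84, SE 0.14, adjusted p = 4.51e-06), and its other called peak rose by 0.48 (adjusted p = 0.0298). Plec rose at 2 peaks (0.57 and 0.54, adjusted p = 0.00255 and 0.0424). Tns4, the gene of a tensin without the actin-binding end, fell, with 217, 241 and 263 CPM in eribulin against 360 and 355 CPM untreated (-0.58, adjusted p = 4.13e-05). Src, the gene of a membrane-bound tyrosine kinase, also fell (-0.34, adjusted p = 0.0334), as did Bcar1, the gene of a substrate of Src (-0.65, adjusted p = 0.011), and Lima1, an actin bundler gene (-0.62, adjusted p = 0.0247). The other rises were at Tns3, Fblim1 and Arhgap26, a GTPase-activating protein gene (0.75, adjusted p = 0.0353). The calls that DESeq2 shared were those of Tns3, the stronger Myh9 peak and Tns4. Without untreated replicate 2 the weaker Myh9 peak (adjusted p = 0.0642), both Plec peaks (0.147 and 0.225), Src (0.0999), Lima1 (0.723) and Arhgap26 (0.269) did not pass.

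In the list of epithelial genes 7 constant deep peaks lay in 6 of 40 genes. By edgeR 1 rose and none fell (2 higher and none lower at an unadjusted p below 0.05). Over all tested peaks 8.27% were higher and 8.53% lower. DESeq2 called none of the 7 (1 higher at an unadjusted p below 0.05). The rise did not pass without untreated replicate 2 (adjusted p = 0.352). Cdh1, the gene of E-cadherin and the classical ZEB1 target, had 72.1, 89.4 and 112 CPM at its deep peak in eribulin, against 71.5 and 94.8 CPM untreated (0.07, adjusted p = 0.826). Tjp1, a tight junction scaffold gene, did not pass over the 3 times (0.40, adjusted p = 0.0856). Of 32 marker genes of other cell types, none held a constant deep peak.

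Mesenchymal and matrix genes held 23 constant deep peaks in 14 of 45 genes. Of these peaks 1 rose and 1 fell, beside 8.27% higher and 8.53% lower over all tested peaks. These were Col4a1 (0.59, adjusted p = 0.0471) and Col4a2 (-0.64, adjusted p = 0.0246), the neighbouring genes of basement membrane collagen. Neither passed with DESeq2 (adjusted p = 0.414 and 0.316) or without untreated replicate 2 (0.47 and 0.0812). Col4a2 also held a stronger constant deep peak, at a mean of 159 CPM against 55.8 CPM for the one that fell. That stronger peak did not pass, and its fold change was positive (0.31, adjusted p = 0.123). Twist2, a transcription factor gene of the mesenchymal programme, had 148, 186 and 232 CPM in eribulin, against 171 and 173 CPM untreated (0.12, adjusted p = 0.57). Zeb2, the paralogue of ZEB1, had 99.4, 125 and 147 CPM in eribulin, against 121 and 97.8 CPM untreated (0.22, adjusted p = 0.341). Twist2 and Zeb2 did not pass the test.

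TGF-beta pathway genes held 23 peaks in 10 of 34 genes, of which 1 rose and 4 fell, with a median of -0.10, beside 8.27% higher and 8.53% lower over all tested peaks. The 2 called peaks of Smurf1, a ubiquitin ligase that limits the pathway, fell, the stronger with 60.1, 92.5 and 109 CPM in eribulin against 138 and 147 CPM untreated (-0.71, adjusted p = 0.000466) and the weaker with a log2 fold change of -0.73 (adjusted p = 0.00799). The signal carrier Smad3 fell at 1 of its 7 peaks (-0.45, adjusted p = 0.0187) and Ltbp1, a gene of the latent TGF-beta complex, fell too (-0.38, adjusted p = 0.0378), while its relative Ltbp3 rose by 0.52 (adjusted p = 0.0323). Genes of microtubules and mitosis held 15 peaks in 9 of 53 genes, of which 3 rose and 1 fell, with a median of 0.15, beside the same shares over all peaks. Macf1, a gene whose product crosslinks microtubules and actin, rose at 2 peaks (0.83 and 0.81, adjusted p = 0.000309 and 0.026) and Dst, the gene of a related crosslinker, by 0.85 (adjusted p = 0.000725). Tacc2, a centrosome gene, fell (-0.78, adjusted p = 0.000114). DESeq2 called none of the TGF-beta peaks (3 lower at an unadjusted p below 0.05) and none of the microtubule peaks (2 higher and 1 lower at that limit). Without untreated replicate 2 both Smurf1 peaks (adjusted p = 0.107 and 0.652), Ltbp1 (0.473), Ltbp3 (0.212), the weaker Macf1 peak (0.721) and Dst (0.262) did not pass.

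The remaining lists are given beside 8.27% higher and 8.53% lower over all tested peaks for the mean of the 3 times. Corepressor and chromatin genes had 16 peaks in 13 of 47 genes, with 2 rises, 1 of them at Kdm2b, and 1 fall, at Tet3, a 5-methylcytosine oxidase gene (-0.59, adjusted p = 0.0268). AP-1, YAP and Hippo genes had 12 peaks in 7 of 38 genes, and none passed for the mean of the 3 times by edgeR or DESeq2 (1 higher and 2 lower at an unadjusted p below 0.05 by edgeR, none by DESeq2). Wnt pathway genes had 11 peaks in 8 of 38 genes with 1 fall, at the ligand gene Wnt7b (-0.64, adjusted p = 0.0159). A stronger constant deep peak of Wnt7b, at a mean of 99.6 CPM against 60.3 CPM, did not pass (-0.02, adjusted p = 0.95). Receptor tyrosine kinase genes had 11 peaks in 8 of 32 genes with 1 fall, at Mertk. The Mertk peak had 91, 109 and 138 CPM in eribulin, against 165 and 174 CPM untreated (-0.61, adjusted p = 0.000864). Epha4, an ephrin receptor gene, did not pass over the 3 times (0.29). It had 237 and 225 CPM at 24 h, against 140 and 127 CPM untreated (0.81, adjusted p = 0.000133). At 72 h it had 116 and 119 CPM, lower than at 24 h (-0.98, adjusted p = 0.000218). Its difference from untreated cells at 72 h did not pass (-0.17, adjusted p = 0.627). Of the genes of p53 and cell death, Bcl2l1, which encodes the survival protein Bcl-xL, was the single one of 36 with constant deep peaks, and 1 of its 2 rose (0.55, adjusted p = 0.00382). None of these calls for the mean of the 3 times passed with DESeq2. Its adjusted p was 0.371 for Tet3, 0.323 for Wnt7b, 0.139 for Mertk and 0.201 for Bcl2l1. For 72 h against 24 h DESeq2 did not call Epha4 (adjusted p = 0.127). Tet3 (0.227), Wnt7b (0.269), Mertk (0.126) and Bcl2l1 (0.223) also missed the threshold when untreated replicate 2 was left out.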

How the data were processed

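The deposited table holds raw counts per library for each consensus peak, whole numbers that carry no scaling. Each group has 1 peak list, in which the deposited values are the fold over IgG (a ratio) and the −log10 of q from the authors' peak caller, by the column order of its format. The peak names give replicate 1 against IgG, and the sources used here do not say how replicate 2 was used. The submitters' processing notes name MACS2 2.1.1, Bowtie2 2.2.6, bedtools 2.30.0, deepTools, featureCounts, Picard, cutadapt 2.4 and bcl2fastq 2.20.0.422, with GRCm38 (mm10).

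The main test was edgeR 4.0.16 under R 4.3.3: filterByExpr by group kept 21192 peaks, libraries were scaled with TMM, and a robust quasi-likelihood model had 1 mean per group and 4 residual degrees of freedom. Calls needed an adjusted p below 0.05, with the Benjamini-Hochberg adjustment made across every tested peak. CPM values were computed from counts in tested peaks after TMM. DESeq2 1.42.0 was an alternative, beside other scalings, filters, thinning to 326944 counts, leave-one-out fits and other membership rules. The fit was tested on simulated data. Every fold change is measured against the rest of a library's peaks.

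Within replicate pairs the chi-square per degree of freedom over constant deep peaks was 1.02, 1.12 and 0.83 at 24, 48 and 72 h, and 0.94 in untreated cells, where 1 is counting noise. The labels do not say whether the pairs are separate cultures or 1 pool, and each pair was kept as 2 libraries. A fit with the pairs of untreated, 24 h and 72 h cells each summed to 1 library was an alternative, in which the spread comes from the 48 h pair alone. Same-numbered libraries of different groups did not deviate together (correlations from -0.0287 to 0.00116), so replicate numbers were not used as pairs.

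Genes came from the RefSeq table of GRCm38.p6 and starts from its promoter windows, 250 bases before to 50 after. The peaks, gene lists and tests were chosen with earlier results of these data known. Named peaks were the 10 of highest mean CPM, the 10 largest rises and falls for the mean of the 3 times and the 5 for each other comparison among called peaks of at least the median CPM without overlap between groups. To these were added the 5 genes with most peaks, up to 6 genes per list with its called peaks, the 5 strongest steady peaks and the 3 nearest the distance limit on each side. Peaks at internal starts and near small nuclear RNA genes were added after the data were seen. Intervals cover counting error only, and coverage tracks were not analysed here. Some called or strong peaks that the naming rule would give are not reported here.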

Additional observations from a re-analysis of the deposited data

Results flagged for a closer look

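For 90 constant deep peaks (18 higher and 72 lower at 72 h) the change from untreated cells differed between 72 and 24 h by the test of that difference itself, edgeR's quasi-likelihood test of 72 h against 24 h with Benjamini-Hochberg adjustment over all tested peaks. The 5 largest in each direction among those of at least 64.9 CPM without overlap between the 2 times are given here. The difference was positive, with a larger fold change at 72 h, for Chd9 (1.08), Rbpj (0.92), Tef (0.90), Col16a1 (0.82) and Ets1 (0.81), and negative for Col18a1 (-1.33), Arhgef33 (-1.31), Ergic1 (-1.15), Sipa1l3 (-1.14) and Palld (-1.07). In each the 2 libraries at 72 h did not overlap the 2 at 24 h. DESeq2 called Palld alone among the 10. No group has 4 or more libraries, so single libraries were not screened for standing apart.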

How the results depend on the processing

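Of the 1193 calls at constant deep peaks over the 5 comparisons, 2 changed direction without untreated replicate 2 and none in the other refits. The counts of constant deep peaks called higher and lower for the mean of the 3 times (181 and 183) were 14 and 9 with DESeq2, and 82 and 111 with every library thinned to the smallest total. At 24 h (184 and 88) they were 14 and 1 with DESeq2 and 58 and 38 thinned, after 48 h (127 and 126) 7 and 2, then 51 and 56 thinned, and after 72 h (90 and 124) 10 and 3, then 56 and 88 thinned. For 72 h against 24 h (18 and 72) they were 0 and 1 with DESeq2 (24 and 85 at an unadjusted p below 0.05), 9 and 38 thinned, and 7 and 47 with replicate pairs summed. Rises at internal starts (30) numbered 5 with DESeq2 and 16 thinned. Listed peaks with a −log10 q of at least 5 gave 1411 constant deep peaks, with 12% of counts against 15.8%, 82 rises at 48 h and 81 falls at 72 h. An overlap of at least 50% gave 1322, with 10.8% of counts. Its calls were 89 lower for the mean, 117 and 49 for 24 h, 80 and 59 for 48 h, 59 and 59 for 72 h, and 11 and 40 for 72 h against 24 h. A distance of over 2 kb gave 31 rises for 72 h against 24 h and 18.4% of counts, over 10 kb gave 13.1% and boundaries of every gene 13.6%.

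Leaving out 1 library at a time, with a lone library assumed to vary like the other groups, gave 29 to 186 higher and 31 to 192 lower for the mean, 48 to 201 and 13 to 94 for 24 h, 22 to 129 and 24 to 135 for 48 h, 17 to 99 and 39 to 135 for 72 h, and 3 to 21 and 13 to 90 for 72 h against 24 h. Rises at internal starts ran from 5 to 30. The fewest calls against untreated cells came without untreated replicate 2, the deeper of the 2, and without replicate 1 the mean gave 105 and 116. With the replicate block the counts for the mean were 178 and 179, and no count moved by over 1.5 times. Of 60 named rises and falls, 27 passed in all 16 alternatives. A change shared by every peak, and losses of whole peaks, cannot be seen here.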
